A study of Mus musculus with 9 samples.

Results

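The genes described here are the apoptosis and cell cycle genes of an nCounter immune panel, measured in bone marrow T-cells of mice with and without B-cell acute lymphoblastic leukemia (B-ALL). Members were all probes whose gene symbol begins with Bcl2, Casp, Birc, Ccna, Ccnb, Ccnd, Ccne, Cdk or E2f, or is Mcl1, Bax, Bak1, Bad, Bid, Fas, Cflar, Xiap, Mki67, Top2a or Myc. The rule found 20 of the 785 probes, of which 12 were survival genes (among them Bak1, Bax, Bcl2, Bcl2l1, Bid, Casp8, Casp9, Cflar, Fas, Mcl1 and Xiap) and 8 were cycling genes (Ccna1, Ccnb1, Ccnb3, Cdkn1c, Cdkn2c, E2f1, E2f2 and E2f5). It reads symbols only and uses no measured value. Symbols could be given to 751 probes and not to 34, and Bad, Mki67, Top2a, Myc and genes beginning with Birc, Ccnd or Ccne were not among those with a symbol and were not analysed here.

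The mice were female wild-type C57BL/6 mice of 6 to 8 weeks that had not been irradiated. Of the 9 mice, 3 carried no leukemia and received no treatment. The other groups, of 3 mice each, received 200000 cells of 1 B-ALL line by tail vein, which carries BCR-ABL1, lacks Arf (Arf-/-) and expresses luciferase, so the leukemia in all 6 stands for a single line. In 1 of these groups, recombinant interleukin 12 (rIL-12) was injected at 1 µg per dose from day 3, and the other is called vehicle treated after the paper, while the sample labels list it as untreated. A pan-T-cell kit was used to isolate the T-cells from marrow taken at day 7. The design asks how leukemia changes these T-cells and how rIL-12 changes them in the presence of leukemia.

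Apoptosis through the mitochondrion is set by the Bcl2 family. Bcl2, Bcl2l1 (Bcl-xL) and Mcl1 hold the pore-forming effectors Bak1 and Bax in check, Bid links death receptors to these effectors, and caspases carry out the death program. Naive and memory T-cells rely on Bcl2 for survival, and its level usually falls in activated T-cells. Dividing T-cells follow E2F factors, which switch on genes of DNA replication, and later make cyclin B1 (Ccnb1), which drives entry into mitosis. CDK inhibitors such as Cdkn2c (p18) restrain the kinases that the cyclins activate.

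Each value is a count of barcodes for 1 probe in 1 mouse. Total counts were between 257613, in vehicle treated mouse 3, and 711748, in rIL-12 treated mouse 2. Counts were scaled between mice and are given as normalized counts. A gene is called changed when its Benjamini-Hochberg adjusted p over all 785 probes is under 0.05 in the quasi-likelihood test of edgeR and it differs by 1.5-fold or more. A probe for a viral gene that mice lack gave 53 to 114 counts with a mean of 91, and the mean counts of Casp9, Ccna1, Ccnb3 and Fas did not exceed it, so these 4 members may hold background. All 11 probed T-cell markers had mean counts above it. Their summed normalized counts were 6416 to 10873 without leukemia, 3855 to 5752 with vehicle and 2049 to 3866 with rIL-12, with the lowest sums in the rIL-12 group, of which mouse 3 lay just above the lowest vehicle treated mouse. The markers did not fall evenly. With vehicle relative to no leukemia their log2 fold changes ran from -2.15 to 0.83, and the 2 called lower encode CD8 chains. By flow cytometry, the paper reports a raised share of CD4+ and a reduced share of CD8+ T-cells in mice with leukemia. With rIL-12 it reports a higher percentage of T-cells in marrow, and a restored T-cell number and CD8+ to CD4+ ratio. The marker sums here were lowest with rIL-12 and do not show that recovery. Flow cytometry counted cells of the marrow, while these sums are RNA of isolated cells, and the difference was not tested. Fewer T-cells, another mix of T-cell subsets and less of these RNAs per T-cell cannot be told apart in such bulk samples. Summed markers were 8867 to 10283, 9772 to 13009 and 10027 to 13771 for 9 myeloid probes, 1775 to 1805, 1971 to 2245 and 1830 to 2052 for 8 B-cell or B-ALL probes, 2720 to 3202, 2269 to 3247 and 2667 to 4011 for 6 NK cell probes, and 1065 to 1169, 1889 to 2214 and 1965 to 2198 for 4 mast cell and basophil probes, in the same order of groups. The part of other cells in the values below was not tested beyond the ratios given.

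Leukemia alone left the 20 genes without a called change, while rIL-12 treatment went with called changes, lower Bcl2 and higher Bak1, Ccnb1 and Cdkn2c. For Bcl2 this contrast rests on the threshold. Its log2 fold change was -0.90 with vehicle relative to no leukemia (adjusted p = 0.0913) and -0.89 with rIL-12 relative to vehicle (adjusted p = 0.0377). Set against T-cell markers, Bcl2 overlapped among the groups, as given below. In vehicle treated mice compared with mice without leukemia, 0 of 12 survival genes and 0 of 8 cycling genes were called, against 1.27% of all probes called higher and 1.4% called lower. With the same fold and p left unadjusted, edgeR gave 1 survival gene, Bcl2, and 0 cycling genes, and DESeq2 with adjusted p called Bcl2. In rIL-12 treated mice compared with mice without leukemia, 3 members were called higher (Bak1, Ccnb1 and Cdkn2c) and 1 lower (Bcl2), where 8.92% of all probes were called higher and 8.66% lower. Compared with vehicle treated mice, 4 were called higher in rIL-12 treated mice (Bak1, Bid, Ccnb1 and Cdkn2c) and 1 lower (Bcl2), where 8.54% of probes were called higher and 5.22% lower. These are shares over the whole panel, and with 20 members each count rests on a few genes, whose values follow. The comparisons share mice with each other, so their values are not independent.

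**Figure D1:**
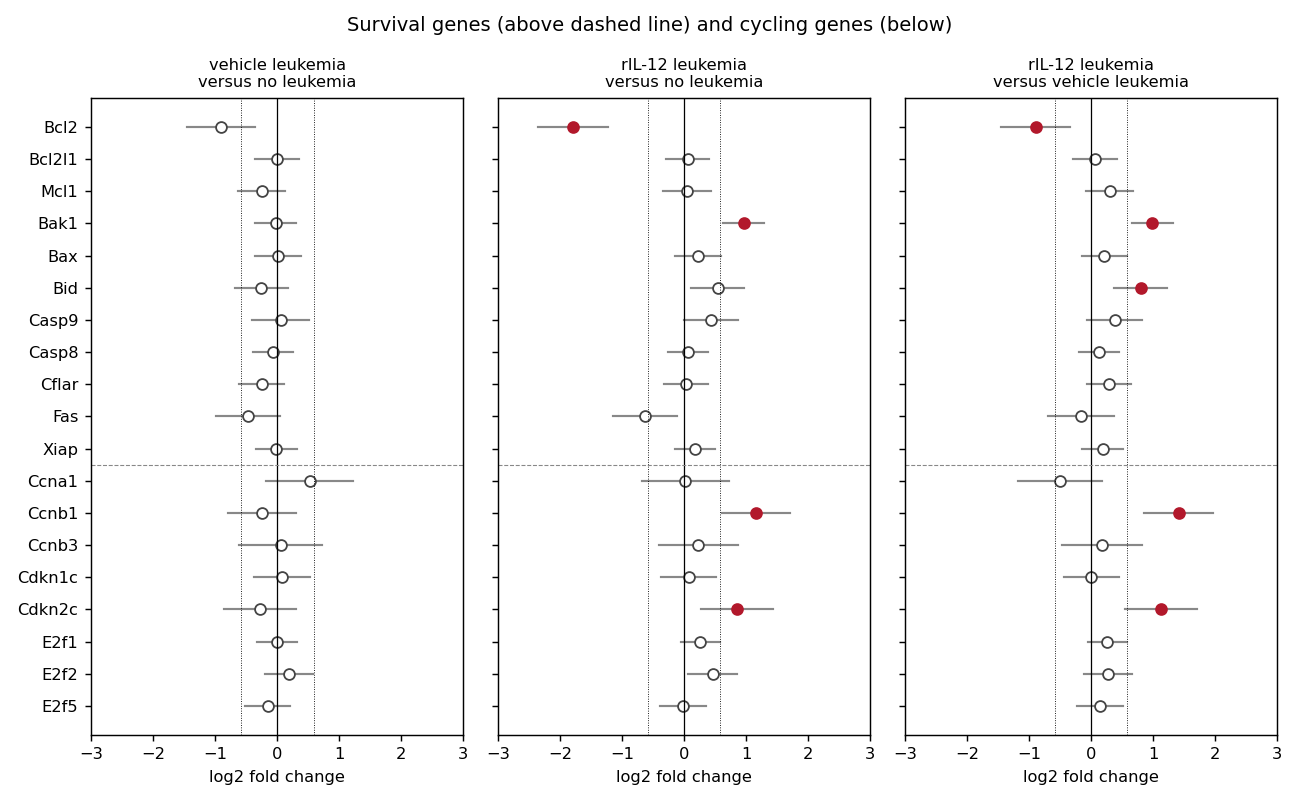
Log2 fold change (x axis) of the members named in the text (y axis) in each of the 3 comparisons, 1 panel each, from edgeR, where bars are 95% intervals, filled red points are called and dotted lines mark a 1.5-fold change. Red points are Bcl2 on the left and Bak1, Ccnb1, Cdkn2c and, against vehicle, Bid on the right, and the panel of vehicle against no leukemia has none.

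The survival genes had a median log2 fold change of -0.06 in vehicle treated mice and 0.12 in rIL-12 treated mice, each relative to no leukemia, and 0.25 in rIL-12 relative to vehicle treated mice. The cycling genes had medians of 0.03, 0.24 and 0.22 in the same comparisons, and all probes had medians of 0.05, 0.02 and -0.08. These small shifts depended on the scaling. When counts were scaled by 11 housekeeping genes, the medians of rIL-12 relative to no leukemia were -0.18 for survival and -0.05 for cycling genes, with -0.27 over all probes. Relative to vehicle they were -0.16 and -0.19, with -0.49 over all probes. The split of calls moved with it, from 67 higher and 41 lower over all probes in rIL-12 against vehicle to 23 higher and 206 lower, and from 70 higher and 68 lower against no leukemia to 22 and 96. Among members, that scaling called Ccnb1 and Cdkn2c higher and Bcl2 and Ccna1 lower against vehicle, and Bak1 and Ccnb1 higher and Bcl2 and Fas lower against no leukemia. Both lists stood above the median of all probes in both rIL-12 comparisons under either scaling.

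Of the survival genes, 3 hold mitochondrial apoptosis back. Bcl2 (NM_009741.3) had 1490, 1085 and 1236 normalized counts in the 3 mice without leukemia, 829, 593 and 613 in vehicle treated mice, and 338, 236 and 524 in rIL-12 treated mice. The 3 groups did not overlap and lay in descending order, with means of 1271 ± 205, 678 ± 131 and 366 ± 146 (SD, n = 3 each). Bcl2 fell by 1.80 on the log2 scale (standard error 0.26, 3.47-fold, adjusted p = 0.000681) in rIL-12 treated mice relative to no leukemia. It was also lower than with vehicle, at a log2 difference of -0.89 (standard error 0.26, 1.86-fold, adjusted p = 0.0377). With vehicle relative to no leukemia its log2 fold change was -0.90 (standard error 0.25, 95% interval -1.45 to -0.36) at an adjusted p of 0.0913, past the fold but not past the threshold on p. A fit of only these 2 groups called this difference, as did DESeq2 and the fits without rIL-12 treated mouse 2 or mouse 3, with log2 fold changes between -0.95 and -0.90. The lower level with rIL-12 relative to no leukemia remained called with each mouse left out and under each scaling, between -2.14 and -1.56. The smaller step from vehicle to rIL-12 was less firm. It lost its call in a fit of only these 2 groups (-0.83), without mice 1 or 3 of the group without leukemia (-0.83 each), without vehicle treated mouse 1 (-0.72), mouse 2 (-1.02) or mouse 3 (-0.96), and without rIL-12 treated mouse 1 (-0.84) or mouse 2 (-0.66).

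The RefSeq promoters of Bcl2, the survival gene that fell, and of Bak1, the survival gene that rose in both rIL-12 comparisons, are given here as the 250 bases before the annotated start in GRCm38.p6. Capitals mark TTTGAA, the core of the cell cycle homology region through which repressor complexes act on cell cycle genes, which, searched on both strands, is found in 16% of 32851 promoter windows of the same length. It lies 120 bases before the start of Bcl2, and 7 of the 23 member windows hold it (of Bax, Bcl2, Casp8, E2f2, Fas, Mcl1 and Xiap), most of them of genes without a call. Bak1 holds neither it, nor CACGTG (an E-box, in 6.02% of windows), nor CCAAT (33.8%), nor the E2F-type motifs TTTCCCGC, TTTGGCGC and TTTCGCGC (1.53% with any of them). Promoters were matched for 17 of the 20 genes, in 23 windows, and 1 of them, of Bcl2l1, held an E2F-type motif. A match describes letters only.
Bcl2, chr1:106714291-106714540, minus strand: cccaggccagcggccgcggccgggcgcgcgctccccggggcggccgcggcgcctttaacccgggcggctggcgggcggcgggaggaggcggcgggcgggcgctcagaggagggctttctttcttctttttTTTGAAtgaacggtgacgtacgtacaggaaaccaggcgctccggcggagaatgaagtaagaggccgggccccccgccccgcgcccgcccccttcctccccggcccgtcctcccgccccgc
Bak1, chr17:27028628-27028877, minus strand: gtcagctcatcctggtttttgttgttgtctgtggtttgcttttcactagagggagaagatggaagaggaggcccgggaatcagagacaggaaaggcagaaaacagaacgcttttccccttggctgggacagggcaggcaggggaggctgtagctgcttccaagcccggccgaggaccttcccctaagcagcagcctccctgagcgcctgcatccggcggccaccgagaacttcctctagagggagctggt

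Mcl1 (NM_008562.3), a short-lived relative of Bcl2, had 2157, 1577 and 1771 normalized counts without leukemia, 1692, 1655 and 1268 with vehicle, and 1899, 2133 and 1641 with rIL-12. Its groups overlapped in every comparison. The log2 fold changes were -0.25 (95% interval -0.63 to 0.13) with vehicle and 0.04 (-0.34 to 0.42) with rIL-12 relative to no leukemia, and 0.30 (-0.08 to 0.68) with rIL-12 relative to vehicle, with adjusted p of 0.614, 0.902 and 0.265. These intervals do not reach the size of the Bcl2 difference with rIL-12. Bcl2l1, which encodes Bcl-xL, had 167 ± 13.6, 166 ± 9.19 and 174 ± 17.4 normalized counts (SD, n = 3 each), with log2 fold changes between 0.00 and 0.06. Within each mouse, Mcl1 counts were 1.43 to 1.45 times Bcl2 counts without leukemia, 2.04 to 2.79 times with vehicle and 3.13 to 9.04 times with rIL-12, a ratio of probe counts chosen after the values were seen. How far it follows the T-cell content of the samples was not tested.

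**Figure D2:**
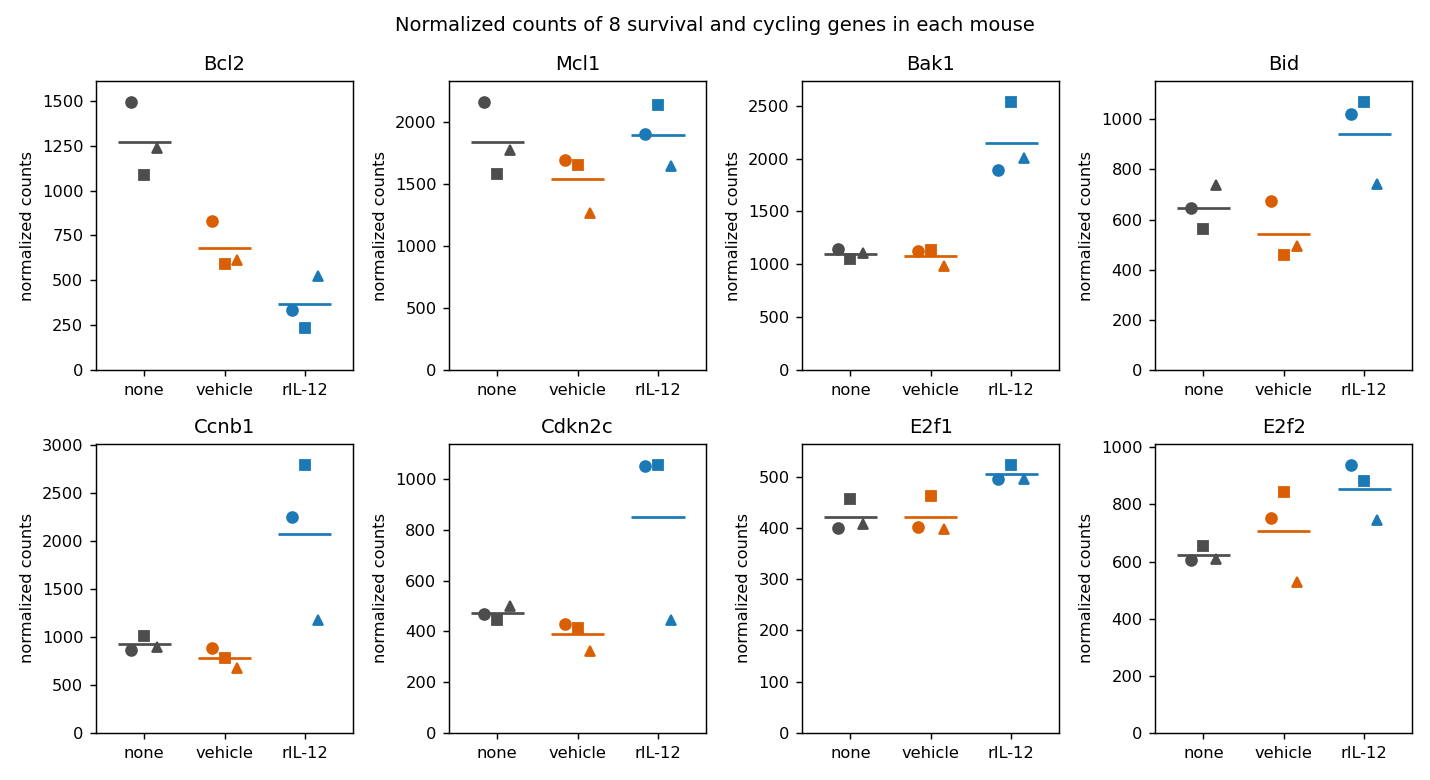
Normalized counts (y axis) of 8 members (Bcl2, Mcl1, Bak1, Bid, Ccnb1, Cdkn2c, E2f1 and E2f2, 1 panel each) by group (x axis where none is no leukemia), where circles, squares and triangles are mice 1, 2 and 3 and lines are group means. The 3 groups of Bcl2 do not overlap, Bak1 is high in all 3 rIL-12 treated mice, and Ccnb1 and Cdkn2c are high in rIL-12 treated mice 1 and 2 and lower in mouse 3.

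Since T-cell markers fell in the same direction as Bcl2, Bcl2 was also set against them within each mouse, a ratio that does not depend on the scaling between mice. Of the 11 T-cell markers, 10 were called lower with rIL-12 and 2 with vehicle relative to no leukemia, and 2 with rIL-12 relative to vehicle, with median log2 fold changes of -1.47, -0.74 and -0.85. Bcl2 counts per 1000 T-cell marker counts were 137, 169 and 138 without leukemia, 144, 108 and 159 with vehicle, and 165, 85.6 and 135 with rIL-12. The groups overlapped, and no group stood apart. Means were 148 ± 18.2, 137 ± 26.3 and 129 ± 40.1 (SD, n = 3), differing by -0.12 with vehicle and -0.25 with rIL-12 relative to no leukemia on the log2 scale. Exact two-sided permutation tests gave p = 0.6 for vehicle and p = 0.4 for rIL-12 against no leukemia, and p = 0.7 for rIL-12 against vehicle, where 3 mice against 3 cannot give less than 0.1. These tests could not have passed 0.05, so the overlap is a description of these 9 mice. The marker counts include the CD8 chain genes, so the ratio also depends on the mix of T-cell subsets. Foxo1, a factor of resting T-cells that also restrains the cell cycle, had 42.0 ± 2.84, 35.1 ± 8.78 and 45.9 ± 12.1 counts per 1000 T-cell marker counts (exact permutation p = 0.3, 0.8 and 0.4 in the same order of comparisons).

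**Figure D3:**
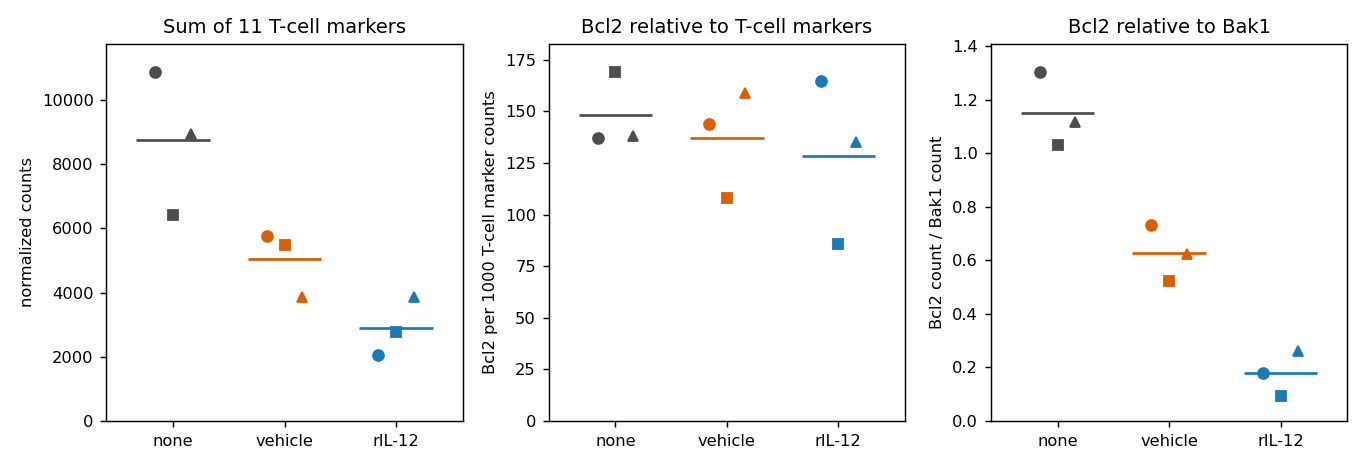
Summed normalized counts of 11 T-cell markers (left) and ratios of raw counts within each mouse (middle and right, y axes) by group (x axis), where circles, squares and triangles are mice 1, 2 and 3 and lines are group means. The marker sum is highest without leukemia, Bcl2 per 1000 T-cell marker counts overlaps among the groups, with means of 148, 137 and 129, while Bcl2 over Bak1 separates them.

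Among the genes that promote death, Bak1 (NM_007523.2), a pore-forming effector, had 1142, 1053 and 1107 normalized counts without leukemia, 1130, 1132 and 984 with vehicle, and 1893, 2530 and 2007 with rIL-12. All 3 rIL-12 treated mice lay above the other 6, whose values overlapped. Bak1 rose in rIL-12 treated mice by 0.96 on the log2 scale (standard error 0.15, 1.95-fold, adjusted p = 0.000953) relative to no leukemia and 0.98 (standard error 0.15, 1.98-fold, adjusted p = 0.0137) relative to vehicle. The log2 fold change with vehicle relative to no leukemia was -0.02 (95% interval -0.36 to 0.31, adjusted p = 0.970). The rise relative to no leukemia stayed called with each mouse left out and under each scaling, between 0.66 and 1.04. Relative to vehicle, Bak1 lost its call under housekeeping scaling (0.58), without vehicle treated mouse 2 (0.98) and without rIL-12 treated mouse 2 (0.85), and the fits without either of these mice called none of the 785 probes, while each still gave 3 survival genes with p unadjusted and the same fold. The related effector Bax, with 401 ± 19.3, 404 ± 32.0 and 468 ± 91.5 normalized counts (SD, n = 3), had log2 fold changes between 0.01 and 0.22 and was not called. Within each mouse, Bcl2 counts were 1.30, 1.03 and 1.12 times Bak1 counts without leukemia, 0.733, 0.524 and 0.623 times with vehicle, and 0.178, 0.0933 and 0.261 times with rIL-12. The 3 groups did not overlap in this ratio, which was chosen after the values were seen. Bcl2 set against T-cell markers did overlap, with means of 148, 137 and 129 per 1000 marker counts. How far Bcl2 over Bak1 follows the T-cell content of the samples was not tested.

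Bid (NM_007544.3), which caspase 8 cleaves to carry a death receptor signal to the mitochondrion, had 645, 562 and 736 normalized counts without leukemia, 674, 460 and 493 with vehicle, and 1019, 1067 and 742 with rIL-12. Each rIL-12 treated mouse lay above every other mouse, with mouse 3 just above the highest mouse without leukemia. Bid rose relative to vehicle by 0.80 on the log2 scale (standard error 0.20, 1.74-fold, adjusted p = 0.0207). Relative to no leukemia the log2 fold change was 0.54 (standard error 0.20, 95% interval 0.12 to 0.96, adjusted p = 0.0730), and without rIL-12 treated mouse 3 it was 0.69 and called. Vehicle relative to no leukemia gave -0.26 (adjusted p = 0.651). The rise relative to vehicle lost its call under housekeeping scaling (0.38), without vehicle treated mouse 2 (0.65) or mouse 3 (0.73), without rIL-12 treated mouse 1 (0.74) or mouse 2 (0.70), and in a fit of only these 2 groups (0.88).

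Fas (NM_007987.2), a death receptor, had 119, 68.8 and 118 normalized counts without leukemia, 79.7, 58.2 and 83.6 with vehicle, and 58.9, 72.5 and 64.1 with rIL-12. Its raw counts were 50 to 122, where the viral probe had 53 to 114. The log2 fold change with rIL-12 relative to no leukemia was -0.63 (standard error 0.24, 95% interval -1.15 to -0.12, adjusted p = 0.0759), and mouse 2 without leukemia lay among the rIL-12 treated mice. Without that mouse it was -0.85 and called, and housekeeping scaling gave -0.92 and a call. Fas had log2 fold changes of -0.47 (adjusted p = 0.387) with vehicle relative to no leukemia and -0.16 (adjusted p = 0.682) with rIL-12 relative to vehicle. Casp8 and Casp9 were not called in any comparison. Casp8, which death receptors activate, had 1227 ± 137, 1166 ± 113 and 1277 ± 90.1. Casp9, which acts after the mitochondrial pore opens, had raw counts of 40 to 100 and was higher in every rIL-12 treated mouse than in every mouse without leukemia, with a log2 fold change of 0.44 (adjusted p = 0.148). The caspase inhibitor Xiap and Cflar, which blocks Casp8, had log2 fold changes between -0.25 and 0.28.

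Groups that do not overlap were frequent over the whole panel, in 22.5%, 35.5% and 30.7% of probes for vehicle against no leukemia, rIL-12 against no leukemia and rIL-12 against vehicle. Among the 12 survival genes this held for 1, 4 and 3, and among the 8 cycling genes for 1, 3 and 3, which is near those shares.

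From a list of 13 other probed apoptosis genes, 0 were called in vehicle against no leukemia. In rIL-12 against no leukemia 2 were called higher and 2 lower, beside 8.92% and 8.66% of all probes, and in rIL-12 against vehicle 1 was called higher and 1 lower, beside 8.54% and 5.22%. These counts are too small to be read apart from the shares of the panel. The median log2 fold changes were 0.20, 0.07 and -0.21. Diablo (NM_023232.3), which leaves the mitochondrion to relieve the caspase block by Xiap, had 366, 365 and 362 normalized counts without leukemia, 305, 287 and 272 with vehicle, and 643, 785 and 354 with rIL-12. It was high in rIL-12 treated mice 1 and 2 and not in mouse 3, which lay below the mice without leukemia. Diablo rose relative to vehicle by 1.04 on the log2 scale (standard error 0.24, adjusted p = 0.0155), and a call relative to no leukemia (0.70, adjusted p = 0.0499) was lost in 16 of 18 alternatives. Without vehicle treated mouse 2 (1.001) or mouse 3 (1.004) or rIL-12 treated mouse 2 (0.79), the call relative to vehicle was lost as well. Tnfsf10, which encodes the death ligand TRAIL, rose with rIL-12 relative to no leukemia (log2 fold change 1.01, standard error 0.26, adjusted p = 0.0171), while Prf1, which encodes perforin (-0.90, standard error 0.19, adjusted p = 0.00508), and Tnfaip3, an inhibitor of NF-kappa-B signaling (-0.74, standard error 0.22, adjusted p = 0.0323), fell. Tnfsf10 lost its call under housekeeping scaling (0.73), without any 1 of the 3 mice without leukemia (0.92 to 1.13) and without rIL-12 treated mouse 2 (0.79), and Tnfaip3 without mouse 1 (-0.45) or mouse 3 (-0.81) without leukemia or rIL-12 treated mouse 2 (-0.69). Gzmb, which encodes granzyme B, fell in rIL-12 relative to vehicle treated mice (-0.84, standard error 0.23, adjusted p = 0.0259), where its mean of 58.1 ± 2.22 normalized counts with rIL-12 was close to the 55.2 ± 9.55 without leukemia and within the range of the viral probe. The Gzmb call was lost in 9 alternatives, 6 of them with 1 mouse left out (-0.92 to -0.62), and housekeeping scaling called 8 of the 13 genes in this comparison, 1 higher and 7 lower.

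Among the cycling genes, Ccnb1 (NM_172301.3), the mitotic cyclin, had 865, 1012 and 899 normalized counts without leukemia, 885, 775 and 672 with vehicle, and 2249, 2787 and 1173 with rIL-12. All rIL-12 treated mice lay above the other 6, with mouse 3 much closer to them than mice 1 and 2. Ccnb1 rose in rIL-12 treated mice by 1.16 on the log2 scale (standard error 0.25, 2.24-fold, adjusted p = 0.00672) relative to no leukemia and 1.41 (standard error 0.26, 2.66-fold, adjusted p = 0.0137) relative to vehicle. With vehicle relative to no leukemia it was -0.25 (95% interval -0.79 to 0.29, adjusted p = 0.718). The log2 fold change relative to no leukemia was between 0.82 and 1.44 over the alternatives, and the call was lost without mouse 1 from the group without leukemia (1.15). Relative to vehicle it was between 0.97 and 1.69, and the call was lost without vehicle treated mouse 2 (1.37) or mouse 3 (1.32) and without rIL-12 treated mouse 2 (1.14). The other cyclin probes were near background. Ccna1, a cyclin mainly of the germ line, had raw counts of 14 to 23 and Ccnb3 of 24 to 57, and neither was called.

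The promoter of Ccnb1, the member with the largest rise with rIL-12, holds CCAAT at 99 and 67 bases before the start. Paired CCAAT boxes bind the factor NF-Y in many promoters of mitotic genes. The motif was added after the other motifs had been listed, and 5 of the 23 member windows hold it, of Casp8, Ccna1, Ccnb1 and E2f2. Capitals mark it in the 250 bases before the RefSeq start (GRCm38.p6).
Ccnb1, chr13:100786487-100786736, minus strand: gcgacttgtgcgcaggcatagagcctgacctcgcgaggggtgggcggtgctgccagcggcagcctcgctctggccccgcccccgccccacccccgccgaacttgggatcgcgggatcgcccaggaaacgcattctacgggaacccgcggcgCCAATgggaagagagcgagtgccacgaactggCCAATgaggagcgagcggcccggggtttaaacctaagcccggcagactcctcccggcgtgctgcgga

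Cdkn2c (NM_007671.2), an inhibitor of the kinases that drive cells out of G1, had 470, 443 and 502 normalized counts without leukemia, 428, 415 and 324 with vehicle, and 1050, 1055 and 445 with rIL-12. Mice 1 and 2 of the rIL-12 group lay above all mice without leukemia, and mouse 3 lay among them. Cdkn2c rose relative to vehicle by 1.12 on the log2 scale (standard error 0.27, 2.18-fold, adjusted p = 0.0184). A call relative to no leukemia (0.85, standard error 0.27, 1.80-fold, adjusted p = 0.0430) rested on details of the fit. It was made in 5 of 18 alternatives and was lost without any 1 of the mice without leukemia (0.81 to 0.95), without vehicle treated mouse 2 (0.83) or mouse 3 (0.85), without rIL-12 treated mouse 1 (0.67) or mouse 2 (0.66), and under housekeeping (0.51) and total count (0.65) scaling. Relative to vehicle the call was lost without vehicle treated mouse 2 (1.14) or mouse 3 (1.01), without rIL-12 treated mouse 1 or mouse 2 (0.94 each), and in a fit of only these 2 groups (1.21). With vehicle, each mouse lay below each mouse without leukemia, at a log2 fold change of -0.27 (adjusted p = 0.712). As an inhibitor, Cdkn2c restrains the cell cycle although it is counted here with the cycling genes. Without the CDK inhibitors, 1 of 6 cycling genes, Ccnb1, was called in either rIL-12 comparison. Cdkn1c, which encodes the inhibitor p57, had raw counts of 60 to 124 and log2 fold changes between 0.00 and 0.07.

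E2f1 and E2f2, which activate genes of DNA replication, differed less than Ccnb1. E2f1 (NM_007891.4) had 400, 456 and 408 normalized counts without leukemia, 403, 462 and 398 with vehicle, and 495, 523 and 497 with rIL-12. The rIL-12 treated mice lay above the other 6 without overlap, but the log2 fold changes of 0.26 (95% interval -0.05 to 0.58) relative to either group were under the fold threshold, with adjusted p of 0.254 relative to no leukemia and 0.232 relative to vehicle. E2f2 (NM_177733.7) had 605, 654 and 609 normalized counts without leukemia, 753, 843 and 528 with vehicle, and 937, 881 and 747 with rIL-12. Each rIL-12 treated mouse lay above each mouse without leukemia, while the vehicle treated mice overlapped with both groups. The log2 fold change of E2f2 with rIL-12 relative to no leukemia was 0.46 (standard error 0.18, 95% interval 0.07 to 0.85, adjusted p = 0.0956). It was 0.27 (adjusted p = 0.322) relative to vehicle, a direction that turned under housekeeping scaling (-0.14). Vehicle relative to no leukemia gave 0.19 (adjusted p = 0.707). E2f5, which acts as a repressor, had log2 fold changes between -0.16 and 0.14. Ccnb1 counts were 2.16, 2.22 and 2.20 times E2f1 counts within each mouse without leukemia, 2.20, 1.68 and 1.69 times with vehicle, and 4.54, 5.33 and 2.36 times with rIL-12, so mouse 3 of the rIL-12 group lay close to the mice without leukemia in this ratio.

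From a list of 12 other probed cell cycle genes, 0 were called higher and 1 lower in vehicle against no leukemia, beside 1.27% and 1.4% of all probes. In rIL-12 against no leukemia 3 were called higher and 1 lower, beside 8.92% and 8.66%, and in rIL-12 against vehicle 5 were called higher and 0 lower, beside 8.54% and 5.22%. The medians were -0.08, 0.28 and 0.46 on the log2 scale. Mcm5 and Mcm7, subunits of the helicase that opens DNA for replication, rose with rIL-12 relative to both other groups. Mcm5 had 2020 ± 118, 1900 ± 185 and 3110 ± 643 normalized counts (SD, n = 3), with log2 fold changes of 0.62 (adjusted p = 0.0244) relative to no leukemia and 0.71 (adjusted p = 0.0195) relative to vehicle. Mcm7 had 2185 ± 46.6, 2076 ± 83.9 and 3348 ± 594, with 0.62 (adjusted p = 0.0157) and 0.69 (adjusted p = 0.0155). Ttk, a kinase of the spindle checkpoint, rose from 227 ± 15.9 without leukemia and 221 ± 49.6 with vehicle to 389 ± 79.3, with 0.78 (adjusted p = 0.0181) and 0.81 (adjusted p = 0.0214). Cdc25a, a phosphatase that activates CDKs (0.62, adjusted p = 0.0247), and Chek1, a checkpoint kinase (0.64, adjusted p = 0.0463), rose relative to vehicle, while their values relative to no leukemia were 0.38 (adjusted p = 0.117) and 0.57 (adjusted p = 0.0627). None of these 5 genes was called under housekeeping or total count scaling, which gave log2 fold changes between 0.21 and 0.61. All 5 also lost their calls relative to vehicle without vehicle treated mouse 2 or mouse 3 or rIL-12 treated mouse 1 or mouse 2, with values between 0.47 and 0.80, and Chek1 lost its call with any mouse left out but rIL-12 treated mouse 3. Relative to no leukemia, Mcm5 and Mcm7 lost theirs without any 1 of the mice without leukemia or rIL-12 treated mouse 1 or mouse 2 (0.52 to 0.72), and Ttk without mouse 1 or mouse 3 without leukemia or rIL-12 treated mouse 2 (0.64 to 0.82). Foxo1 fell from 369 ± 103 normalized counts without leukemia to 172 ± 33.2 with vehicle (log2 fold change -1.09, adjusted p = 0.0241) and 125 ± 6.54 with rIL-12 (-1.55, adjusted p = 0.000681), and the call with vehicle was lost without mouse 1 (-0.98) or mouse 3 (-1.05) without leukemia without vehicle treated mouse 2 (-0.95) or mouse 3 (-1.07), and under housekeeping scaling (-0.98).

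**Figure D4:**
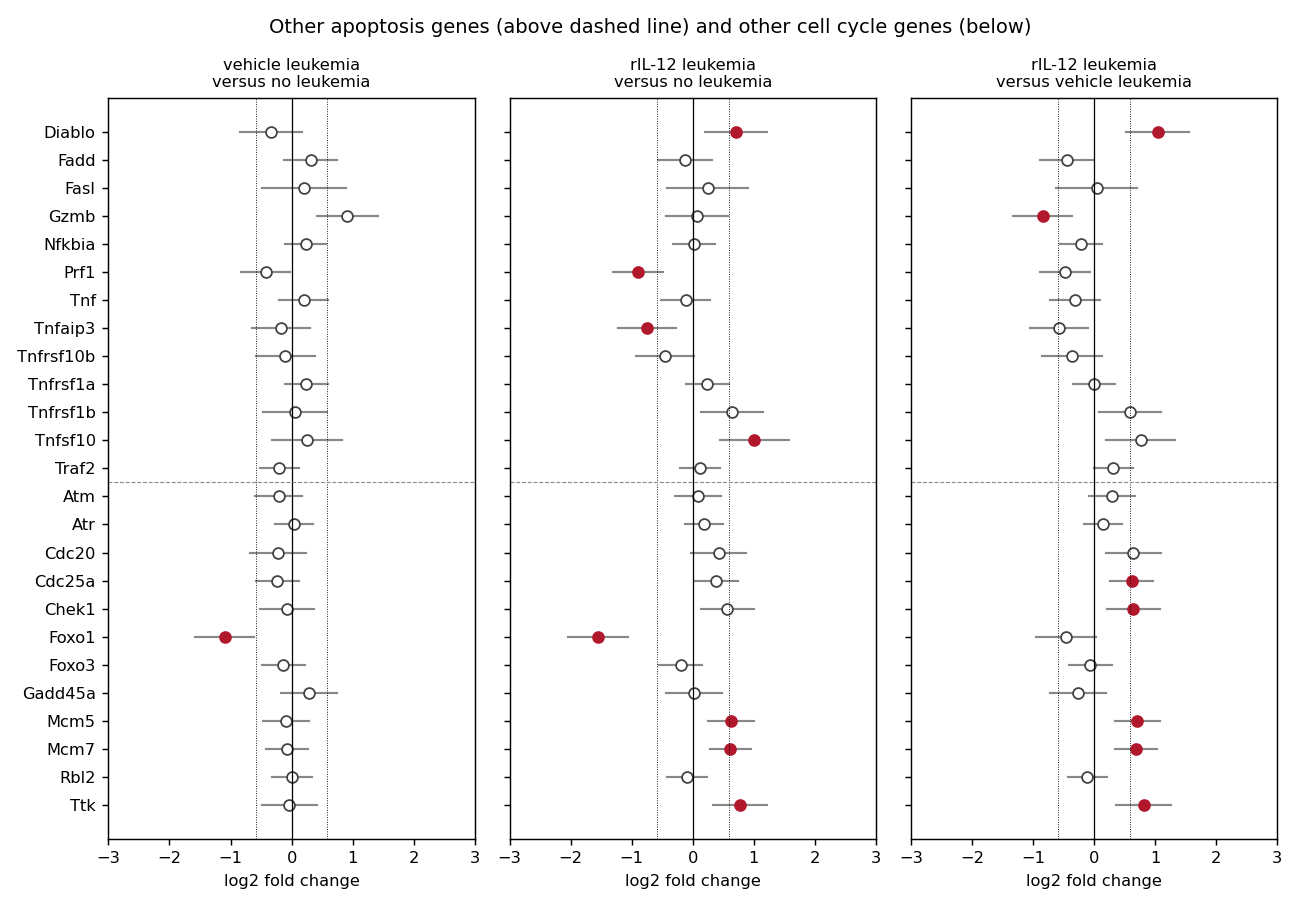
Log2 fold change (x axis) of the 13 other apoptosis and 12 other cell cycle genes (y axis) in the 3 comparisons, 1 panel each, from edgeR, where bars are 95% intervals, filled red points are called and dotted lines mark a 1.5-fold change. Mcm5, Mcm7 and Ttk are called to the right in both rIL-12 panels and Foxo1 to the left in both panels against no leukemia.

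The rIL-12 treated mice differed among themselves in the cycling genes. Mice 1 and 2 had 2249 and 2787 normalized counts of Ccnb1 and 1173 in mouse 3, and 1050 and 1055 of Cdkn2c against 445. T-cell marker sums were instead highest in mouse 3, at 2049 and 2757 in mice 1 and 2 and 3866 in mouse 3. The NK cell sums, at 2667, 3749 and 4011, were also highest in mouse 3, and most of each was Nkg7 (1780, 2253 and 3081). Among the NK cell probes, Klrk1 alone was lowest in mouse 3 (464, 1065 and 374), and the others were highest there. The sums of mice 1, 2 and 3 were 13771, 11085 and 10027 for myeloid, 2052, 1929 and 1830 for B-cell or B-ALL, and 2198, 1983 and 1965 for mast cell and basophil probes, each lowest in mouse 3. Bak1, at 1893, 2530 and 2007, did not divide these mice in this way. Whether cells other than T-cells account for part of the Ccnb1 and Cdkn2c values was not tested.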

How the data were processed

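T-cells from the bone marrow of 9 mice, 3 in each of 3 groups, were profiled on a mouse immune exhaustion panel (nCounter). Raw barcode counts of 785 probes were deposited by the authors as whole numbers, and the nSolver normalization of the methods is not part of these values. Groups came from the sample labels. Probes were named by looking up their transcripts in a RefSeq table. Counts were scaled with TMM and tested in R 4.3.3 with edgeR 4.0.16 (quasi-likelihood), with all 9 mice in 1 model, no filter and a prior count of 1. Calls required 1.5-fold or more and a p under 0.05 after Benjamini-Hochberg adjustment over the table. Intervals are 95% confidence intervals of the difference between groups, with standard errors that take in the spread between mice. Pairs of mice in 1 group had a chi-square of 5.54 to 60.0 per degree of freedom, above counting error. The test was also run on simulated data with planted changes larger than most of those called here, which does not measure the error of these calls. Full values are given for members called in any comparison, for Bcl2, Mcl1 and Fas, and for the 2 members with the largest change in each direction, comparison and list among those whose groups did not overlap. The members and lists were chosen with earlier results of these data known. The methods name a t-test for 2 groups and ANOVA for 3 or more. The t-test used here took log2 normalized counts of 2 groups at a time and not the nSolver values, so it does not repeat the paper's procedure. Alternatives were size factors of DESeq2 1.42.0 and its test, scaling by 11 housekeeping genes or total counts, a filter at the viral probe, a replicate block, fits of only 2 groups, this t-test (two-sided, adjusted), a 2-fold threshold, the cycling genes without CDK inhibitors, and leaving out each mouse. For the other pathway genes, these alternatives were added after seeing the data. Values of 1 member, counted in the totals, and of 1 marker are not reported here.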

Additional observations from a re-analysis of the deposited data

How the results depend on the processing

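With 3 mice in each group, single calls depended on single mice and on the scaling. Survival genes called in vehicle treated mice relative to no leukemia were 0, and 1 (Bcl2) with only the 2 groups compared and with DESeq2, and between 0 and 1 with each mouse left out. Cycling genes called in that comparison were 0 under every alternative. Relative to no leukemia, rIL-12 gave 2 called survival genes, 3 with housekeeping scaling (Fas added), 1 with a 2-fold threshold and 0 with the t-test, which called 0 of all 785 probes in each comparison. It gave 2 called cycling genes, 1 with housekeeping scaling, total count scaling, a replicate block, only the 2 groups, a 2-fold threshold or without CDK inhibitors, 0 with the t-test, and between 0 and 2 with a mouse left out, where 0 was the fit without mouse 1 from the group without leukemia. Relative to vehicle, rIL-12 gave 3 called survival genes, 1 with housekeeping scaling or only the 2 groups, 0 with the t-test or a 2-fold threshold, and between 0 and 3 with a mouse left out. Cycling genes called were 2, 3 with housekeeping scaling (Ccna1 added, called lower), 1 with only the 2 groups or without CDK inhibitors, 0 with the t-test, and between 0 and 2 with a mouse left out. The count was 0 in both lists without vehicle treated mouse 2 or rIL-12 treated mouse 2, and 0 for cycling genes without vehicle treated mouse 3. At an unadjusted p with a 1.5-fold change, the t-test gave 1, 3 and 3 members in the 3 comparisons.

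Directions that turned were those of small values. Bak1 in vehicle relative to no leukemia (-0.02) was 0.083 with housekeeping scaling, 0.0085 with the filter at the viral probe and -0.056 to 0.040 with a mouse left out. Mcl1 in rIL-12 relative to no leukemia (0.04) was -0.26 with housekeeping scaling, -0.14 with total counts, -0.014 with the filter and -0.054 to 0.20 with a mouse left out. Relative to vehicle, housekeeping scaling gave -0.14 for E2f2 (0.27) and -0.11 for Mcl1 (0.30). The cause was not tested. Total counts as the scale moved the median over all probes to -0.15 and -0.28 in the comparisons of rIL-12 with no leukemia and with vehicle. Mice with the same number were not treated as paired, since the labels do not say that they are. Of 9 same-number pairs 5 had a correlation of deviations over 0.1 (range -0.18 to 0.33), where other pairs had a median of -0.0047. Only 3 mice correlated best with a same-number mouse. These values cannot settle whether same-number mice share a batch. The replicate block took the call of Cdkn2c relative to no leukemia (0.76) and of no other member. An alternative without Birc5 could not be run, since no probe was matched to it.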
